A study of Mus musculus with 16 samples.

Results

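Tumors of 2 single treatments were compared with each other: 4 tumors of mice given an agonist antibody against CD40, with vehicle in place of the inhibitor, and 4 tumors of mice given a MEK inhibitor, with a control immunoglobulin in place of the agonist. These 8 tumors were chosen by their treatment labels alone, out of 16 in the series, and all probe sets other than the array's own controls were used. Every tumor was a B16-OVA melanoma, a mouse line that carries ovalbumin as a model antigen, grown under the flank skin of C57BL/6-Ly5.1 mice that were 6 to 12 weeks old at injection, and all were taken at day 18. Mice of the CD40 group received the antibody on treatment days 3, 5 and 7 and again 1 day before the tumors were taken, together with the inhibitor's vehicle. Mice of the MEKi group received 30 mg/kg GDC-0623 daily for about 2 weeks and the control immunoglobulin on the antibody's days. The 4 control tumors of mice given vehicle and control immunoglobulin stand beside the contrast where a level without either agent is needed. The tumors are transplants of 1 cultured line, and the arrays saw whole tumor pieces, so the host's own cells are part of each value.

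CD40 is a receptor of the tumor necrosis factor receptor family on dendritic cells, macrophages and B cells, and its engagement raises their antigen presentation and cytokine output. T cells and NK cells primed in this way release interferon gamma, which acts through JAK and STAT proteins to raise guanylate binding proteins, chemokines for T cells, the immunoproteasome and both classes of MHC. MEK lies in the RAS, RAF and ERK cascade, which drives growth of melanoma cells and is also used by T cells downstream of their receptor. The direct contrast asks where tumors under one agent differed from tumors under the other, and each value below is the CD40 mean minus the MEKi mean in log2 units of array signal, with its SE and 4 tumors per group, unless said otherwise.

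The 2 groups differed mainly in 1 direction. Of 18193 genes with 1 probe set each, 197 had a higher signal in the CD40 tumors at an adjusted p under 0.05 (limma, Benjamini-Hochberg over all 45037 probe sets), which is 1.08% of the genes, and 33 had a lower one, which is 0.181%. The higher genes differed by 0.38 to 5.51 with a median of 2.31, and 117 of them by more than 2. The lower genes differed by -1.37 to -0.37 with a median of -0.55, and 2 of them lay beyond -1. None of the called genes had overlapping groups, but 4 tumors against 4 gave no overlap in 4.89% of all genes on the higher side and 5.94% on the lower side. Over all genes the median difference was -0.045 and 37.6% of the genes had a positive one. This centre moved with the normalisation, as the median was 0.004 with cyclic loess and -0.075 with median centring. An unadjusted p under 0.05 was reached by 9.01% of the genes on the lower side and 6.87% on the higher side. These shares over all genes are the measure for each count of list members below.

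The number of calls changed with the tumors included. A fit with 1 tumor fewer also has less power, and that was not separated from the weight of the tumor. Of all probe sets 347 were called higher and 55 lower in the CD40 tumors. Without CD40 tumor 2 these numbers were 95 and 5, and without MEKi tumor 2 they were 111 and 6. The higher calls also fell to 227 without CD40 tumor 1, to 180 without MEKi tumor 1 and to 188 without MEKi tumor 4. They fell to 280 without CD40 tumor 4 and to 245 without MEKi tumor 3. Without CD40 tumor 3 the higher calls rose to 399, while the lower calls were 49. The lower calls fell to 20 and 31 without CD40 tumors 1 and 4, and to 21, 33 and 11 without MEKi tumors 1, 3 and 4. A prior that follows signal and is robust to outlying variances left 194 and 31. Of the 58 genes called among those chosen for naming, 13 were called under every alternative tried, namely Ubd, Oas2, Usp18, Dhx58, Ifi35, Slamf8, Casp1, Casp4, Erap1, Tapbp, H2-M3, H2-DMa and Scd1.

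Transcripts of other tissues set 2 tumors apart. The mean of 20 fibroblast and matrix genes was 10.65 in CD40 tumor 3 and 10.41 in MEKi tumor 3, against 8.01 to 8.34 in the other CD40 tumors and 8.10 to 8.99 in the other MEKi tumors. CD40 tumor 3 also held skeletal muscle transcripts, with a mean over 20 genes of 7.32 against 4.80 to 4.88 in the rest of its group and 4.84 to 5.53 in the MEKi tumors. Pigment genes that define the melanocyte lineage were high throughout, with list means of 11.90 to 12.33 in the 8 tumors. Without the 2 tumors of high fibroblast signal, an alternative chosen after seeing the data, 631 probe sets were called higher and 117 lower. The part of these tissues in the results was not tested beyond these values. The gap between 3′ and 5′ probe sets of Gapdh and Actb, a sign of RNA quality, gave exact two-sided permutation p of 1 and 0.343 between the groups, where 0.0286 is the smallest that 4 tumors against 4 allow.

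Genes that answer interferon gamma were higher in the CD40 tumors without exception among those measured. All 17 measured members of that list had a higher signal in each of the 4 CD40 tumors than in any MEKi tumor, with differences from 1.35 to 5.51 and a median of 3.78, and 9 of the 17 were called. The called number ranged from 1, without CD40 tumor 2, to 14 with all 16 arrays in the fit. Ubd, an ubiquitin-like protein that marks proteins for the proteasome, read 9.68, 10.71, 10.81 and 8.64 in the CD40 tumors and 5.06, 4.48, 4.53 and 4.50 in the MEKi tumors. Of those 4 MEKi values, 3 lay below the background level of 4.94, which was set from olfactory receptor probe sets, and the groups were far apart. The fitted difference was 5.32 ± 0.44 (adjusted p = 0.00629), and with MEKi values below background set to that level Ubd was at least 31.8-fold higher. The same bound, in place of a fold for genes whose MEKi mean lay below background, was at least 20.2-fold for Gbp8, 14.2-fold for Aif1, 13.5-fold for Slamf8, 4.86-fold for Cd3g, 4.63-fold for Chil3 and 3.46-fold for Ifng.

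Of the guanylate binding proteins, GTPases that attack the vacuoles of intracellular microbes, Gbp6, Gbp8 and Gbp2 were among the 10 genes with the widest gaps, as were Ubd and the T cell chemokine Cxcl9. Gbp6 read 12.40, 13.19, 12.79 and 11.70 in the CD40 tumors and 9.02, 5.74, 4.83 and 8.45 in the MEKi tumors, a difference of 5.51 ± 0.87 (adjusted p = 0.0282). Cxcl9 read 11.79, 12.66, 13.21 and 11.22 against 8.41, 6.42, 4.85 and 7.95, a difference of 5.31 ± 0.75 (adjusted p = 0.0206). The CD40 tumors sat closer together than the MEKi tumors for both genes, and MEKi tumors 2 and 3 were well below MEKi tumors 1 and 4. Gbp3 was higher by 4.18 ± 0.51 (adjusted p = 0.0117), Gbp8 by 5.15 ± 0.65 (adjusted p = 0.0134) and Gbp2 by 4.72 ± 0.83 (adjusted p = 0.0412). AW112010, a long noncoding RNA in RefSeq, and Gm4951, a predicted interferon-inducible GTPase, completed the 10 widest gaps with Slamf8, Psmb8 and Psmb9, at 4.80 and 4.61. Irf8, a transcription factor of myeloid cells that interferon gamma raises, read 8.76, 10.17, 10.28 and 8.79 against 7.18, 6.01, 5.93 and 6.47, a difference of 3.10 ± 0.42 (adjusted p = 0.0171). Its groups did not overlap, and every CD40 tumor was well above the highest MEKi tumor. The same split within the MEKi group appeared in the mean of the whole list, which was 8.27, 6.47, 6.03 and 7.79 in MEKi tumors 1 to 4 and 10.28, 11.36, 11.02 and 9.96 in CD40 tumors 1 to 4. The calls of Gbp6, Cxcl9, Gbp8 and Gbp2 were lost with the robust prior, where their adjusted p were 0.0966, 0.0767, 0.0559 and 0.12.

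**Figure D1:**
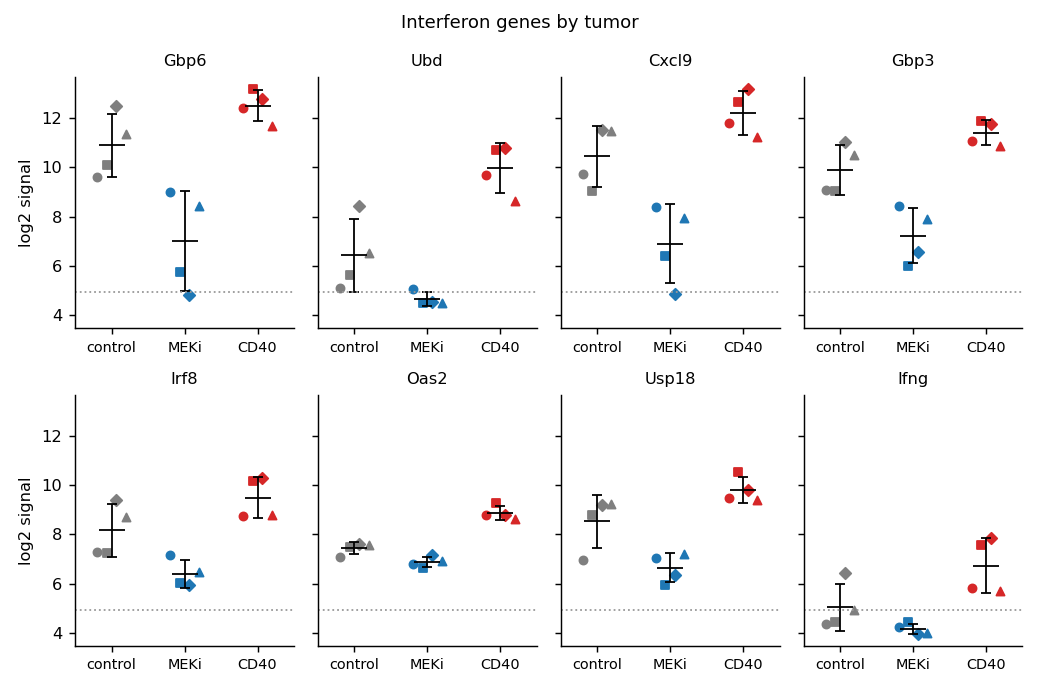
Log2 signal of 8 genes in each tumor, with control tumors in grey, MEKi tumors in blue and CD40 tumors in red. Markers show tumors 1 to 4 as circle, square, diamond and triangle, the bar with whiskers is the mean ± SD of 4 tumors, and the dotted line is the background level of 4.94. In each panel all 4 CD40 tumors sit above all 4 MEKi tumors, and Ubd of the MEKi tumors lies at 4.48 to 5.06, next to the background.

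Genes of the type I interferon response, which cells switch on against viruses and which overlap in part with those of interferon gamma, differed in the same direction with a smaller median. All 24 measured members were higher without overlap, and 21 of the 24 were called, with differences from 0.80 to 4.09 and a median of 2.34. Between 10 and 21 members were called under the alternatives, the fewest with the replicate number as a block. Oas2, which makes the signal that activates RNase L, read 8.80, 9.29, 8.79 and 8.65 in the CD40 tumors and 6.78, 6.65, 7.15 and 6.94 in the MEKi tumors. Both groups were tight, and the difference of 2.00 ± 0.16 had the same adjusted p of 0.00629 as Ubd. Usp18, a protease that removes ISG15 and dampens interferon receptors, was higher by 3.16 ± 0.33 (adjusted p = 0.00817). Dhx58, a sensor of the RIG-I family, was higher by 2.82 ± 0.29 and Ifi35 by 2.05 ± 0.21, both with an adjusted p of 0.00807. The 3 members that were not called were Ifit2, Mx2 and Oas3, named here for that reason, with differences of 1.04, 0.83 and 0.80.

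The receptors and kinases upstream showed little of this. None of 7 was called, the median difference was 0.33, and 3 had no overlap, against 4.89% of all genes. Ifnar2, a chain of the type I interferon receptor, was higher by 0.58 ± 0.13 (adjusted p = 0.0912) and Jak2, a kinase of the interferon gamma receptor, by 0.56 ± 0.18 (adjusted p = 0.206). Tyk2 differed by 0.18 ± 0.09, and another of its probe sets pointed the other way at an unadjusted p under 0.05. Interferon gamma itself, made by T cells and NK cells, read 5.83, 7.56, 7.84 and 5.70 in the CD40 tumors and 4.23, 4.43, 3.97 and 3.99 in the MEKi tumors. Ifng was thus above the background in every CD40 tumor and below it in every MEKi tumor, with a difference of 2.58 ± 0.47 (adjusted p = 0.0471). The call of Ifng was lost when any 1 tumor other than CD40 tumors 1 and 4 was left out, with an adjusted p of up to 0.147 without CD40 tumor 2.

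Promoter sequences of RefSeq (GRCm38.p6, 250 bases before to 50 after the start site) were searched on both strands for the core of the interferon-stimulated response element, which is GAAA, any 2 bases and GAAA again, and for the gamma-activated site, TTCNNNGAA. The first occurs in the windows of 3.99% of all 27025 genes in the table and the second in 9.55%. Of the 197 genes called higher, 153 matched the table, and 23.5% of these carried the first motif and 18.3% the second. Of the 33 called lower, 27 matched, 0 carried the first and 3 the second. Among the members of the interferon gamma list 12 of 17 matched, with the first motif in 8 and the second in 5, and among those of the type I list 17 of 24 matched, with the first in 9 and the second in 4. These are descriptions of letters in a window, not of bound sites, and genes with related promoters are not independent. The windows of 5 of the genes called, each with a match within 200 bases of the start, are shown as examples. They run 5′ to 3′ in the direction of the gene, with the matches in capitals. Other called genes also carried a match, such as Erap1 and Ifi35, while Ubd, Cxcl9 and AW112010 had a window with neither motif. Gbp3 and Irf8 each had another window, not shown, with neither motif. Gbp2, Gbp3 and Slamf8, a receptor of the SLAM family on myeloid cells, hold the first motif, read here on its other strand as TTTC, 2 bases and TTTC, and Psmb8 and Irf8 hold the second.
Gbp2 (chr3:142620413-142620712, plus strand): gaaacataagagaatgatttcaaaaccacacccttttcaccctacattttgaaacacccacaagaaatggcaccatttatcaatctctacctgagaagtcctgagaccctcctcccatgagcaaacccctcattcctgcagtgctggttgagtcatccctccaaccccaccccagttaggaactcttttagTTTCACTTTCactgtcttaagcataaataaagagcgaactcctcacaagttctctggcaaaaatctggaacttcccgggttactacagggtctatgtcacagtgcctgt
Gbp3 (chr3:142559794-142560093, plus strand): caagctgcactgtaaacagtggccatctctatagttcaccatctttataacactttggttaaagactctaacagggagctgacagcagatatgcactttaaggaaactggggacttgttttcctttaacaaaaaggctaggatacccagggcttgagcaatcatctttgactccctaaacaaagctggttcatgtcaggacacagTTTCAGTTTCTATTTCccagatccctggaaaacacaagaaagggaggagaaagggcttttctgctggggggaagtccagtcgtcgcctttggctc
Slamf8 (chr1:172590519-172590818, minus strand): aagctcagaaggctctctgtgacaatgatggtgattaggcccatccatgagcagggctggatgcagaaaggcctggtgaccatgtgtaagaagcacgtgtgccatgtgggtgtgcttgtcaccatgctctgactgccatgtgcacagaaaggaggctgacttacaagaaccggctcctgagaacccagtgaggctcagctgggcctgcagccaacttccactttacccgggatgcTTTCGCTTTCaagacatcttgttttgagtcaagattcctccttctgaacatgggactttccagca
Psmb8 (chr17:34197945-34198244, plus strand): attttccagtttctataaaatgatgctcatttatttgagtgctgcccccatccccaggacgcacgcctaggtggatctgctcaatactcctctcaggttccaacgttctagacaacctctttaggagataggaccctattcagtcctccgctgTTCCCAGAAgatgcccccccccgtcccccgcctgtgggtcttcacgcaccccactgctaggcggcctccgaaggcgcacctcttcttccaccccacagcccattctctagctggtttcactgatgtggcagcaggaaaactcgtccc
Irf8 (chr8:120736108-120736407, plus strand): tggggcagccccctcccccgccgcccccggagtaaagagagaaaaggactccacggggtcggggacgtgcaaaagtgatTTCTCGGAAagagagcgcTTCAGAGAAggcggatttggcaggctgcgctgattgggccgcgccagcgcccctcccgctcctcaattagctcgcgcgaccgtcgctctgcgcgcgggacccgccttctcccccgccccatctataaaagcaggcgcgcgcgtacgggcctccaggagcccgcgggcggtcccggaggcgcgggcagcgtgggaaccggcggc
The match of Slamf8 begins 15 bases before the start and that of Gbp2 59 bases before it, while Gbp3 holds 2 overlapping matches at 45 and 39 bases before the start. The genes shown were higher in the CD40 tumors by 4.72 for Gbp2, 4.18 for Gbp3, 4.69 for Slamf8, 4.81 for Psmb8 and 3.10 for Irf8. The windows of Tap1 (chr17:34187306-34187605, plus strand) and Psmb9 (chr17:34187281-34187580, minus strand) lie head to head and share 275 bases, neither motif was found in them, and both genes were called higher.

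The catalytic subunits that replace those of the standard proteasome under interferon were higher in the CD40 tumors, while those of the standard core gave no call. All 4 measured members of the immunoproteasome and its PA28 cap were called, with a median of 3.39. Psmb8 read 12.05, 12.63, 12.50 and 12.03 in the CD40 tumors and 9.20, 5.81, 6.87 and 8.07 in the MEKi tumors, a 28.1-fold difference of 4.81 ± 0.62 (adjusted p = 0.0138). Psmb9 read 11.67, 12.47, 12.25 and 11.70 against 9.18, 5.72, 6.22 and 8.52, a difference of 4.61 ± 0.71 (adjusted p = 0.0266). CD40 tumors agreed within 1 log2 unit for both subunits, and MEKi tumors spread over 3 or more, again with tumors 2 and 3 lowest. Psmb10 was higher by 2.18 ± 0.31 (adjusted p = 0.0213) and the activator Psme1 by 1.74 ± 0.22 (adjusted p = 0.014). Without CD40 tumor 2, without MEKi tumor 2 or with the robust prior 1 of the 4 was called. The 14 subunits of the constitutive core were 0.12 to 0.54 higher with a median of 0.25 and none was called. No overlap was seen in 9 of the 14, against 4.89% of all genes. Psma5, the member with the smallest p, differed by 0.35 ± 0.09 (adjusted p = 0.114).

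MHC class I heavy chains, the peptide transporter and the loading complex followed. Of 13 measured members 7 were called higher and 10 had no overlap, with a median of 2.24, or 1.69 with all probe sets of a gene averaged. Tap1, a subunit of the transporter that carries peptides into the endoplasmic reticulum, read 10.41, 11.42, 11.16 and 10.43 in the CD40 tumors and 8.54, 5.86, 6.26 and 8.03 in the MEKi tumors, a difference of 3.68 ± 0.58 (adjusted p = 0.0275). H2-M3, a class I molecule that presents formylated peptides, read 9.62, 9.78, 10.07 and 9.42 against 6.84, 5.48, 6.57 and 6.81, a difference of 3.30 ± 0.29 (adjusted p = 0.00629). Its CD40 values lay close together and the gap to the MEKi tumors was several times wider than their spread. Erap1, which trims peptides, was higher by 2.63 ± 0.28 (adjusted p = 0.00845) and Tapbp, the bridge between transporter and class I molecule, by 2.41 ± 0.26 (adjusted p = 0.00882). The classical heavy chain H2-K1 read 13.82, 14.05, 14.13 and 13.87 against 12.94, 11.50, 12.63 and 13.02, and its light chain B2m 14.27, 14.34, 14.39 and 14.22 against 13.66, 12.26, 12.17 and 13.73. The groups did not overlap for either gene, but the differences of 1.44 ± 0.30 (adjusted p = 0.0706) and 1.35 ± 0.36 (adjusted p = 0.14) were not called. In the fit over all 16 arrays both were, with adjusted p of 0.0186 and 0.0407, and H2-K1 also without MEKi tumor 2 (0.0218) and with its probe sets averaged (0.0326). Called members of the list ranged from 3 to 10 under the alternatives. The 3 chaperones of the endoplasmic reticulum in the list, Canx, Pdia3 and Calr, named here because they overlapped, differed by -0.14, 0.17 and 0.03.

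MHC class II genes, which serve antigen-presenting cells, were also higher in the CD40 tumors. Of 10 measured members 4 were called and 9 had no overlap, with a median of 3.51. H2-DMa, part of the editor of class II peptides, read 10.06, 11.63, 11.41 and 10.13 in the CD40 tumors and 7.09, 5.50, 6.33 and 6.38 in the MEKi tumors, a 22.4-fold difference of 4.48 ± 0.43 (adjusted p = 0.00786). Cd74, the invariant chain, read 11.61, 12.63, 12.89 and 12.15 against 8.70, 5.87, 9.20 and 8.31, a difference of 4.30 ± 0.65 (adjusted p = 0.0243). H2-Ab1, a class II chain, read 11.04, 11.90, 12.75 and 11.22 against 8.07, 6.24, 9.62 and 7.40, a difference of 3.89 ± 0.66 (adjusted p = 0.0368). For Cd74 and H2-Ab1 the highest MEKi tumor was tumor 3, the one with much fibroblast signal, whereas for Psmb8 and Tap1 the highest was tumor 1. H2-DMb2 was higher by 1.70 ± 0.31 (adjusted p = 0.0447). Under the alternatives 1 to 6 members were called, and 1 was left without CD40 tumor 2, without MEKi tumor 1, without MEKi tumor 4 or with the robust prior.

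**Figure D2:**
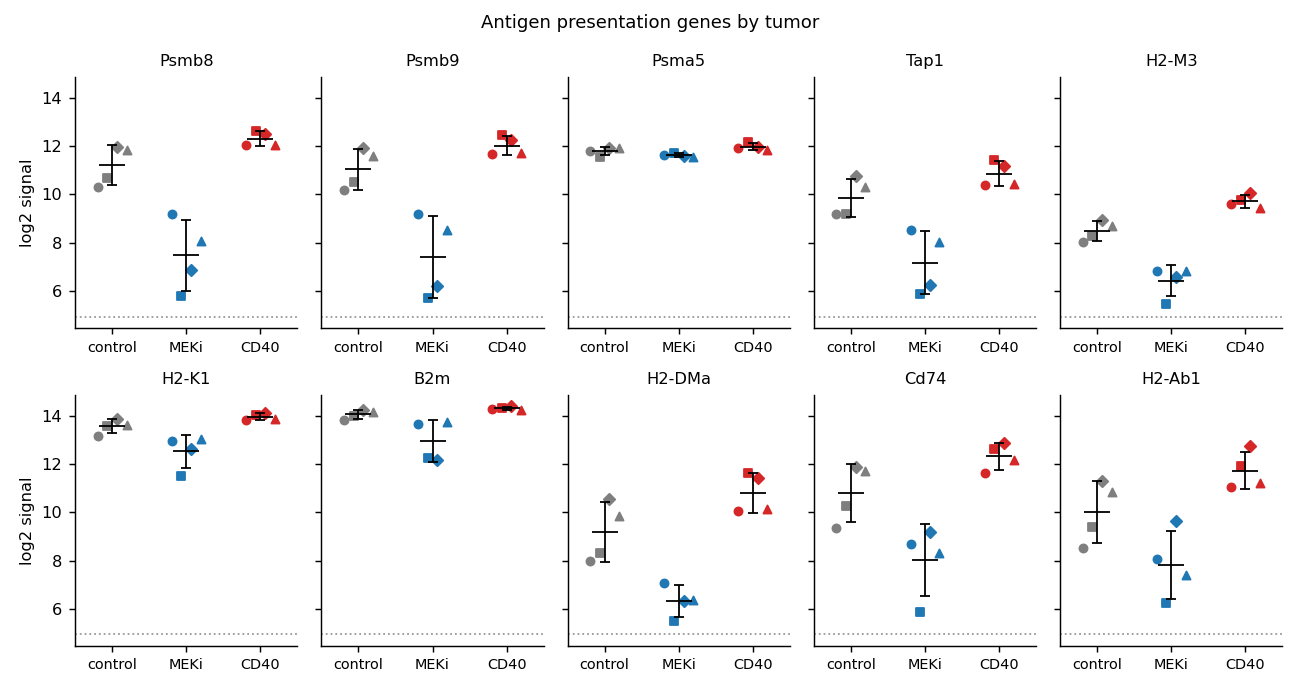
Log2 signal of 10 antigen presentation genes in each tumor, with control tumors in grey, MEKi tumors in blue, CD40 tumors in red, the mean ± SD of 4 tumors as bars, markers for tumors 1 to 4 as circle, square, diamond and triangle, and the background level dotted. Psmb8 of the CD40 tumors lies at 12.03 to 12.63 and that of the MEKi tumors at 5.81 to 9.20, while Psma5 of the constitutive core stays between 11.55 and 12.17 in both.

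Leukocyte transcripts in general were higher in the CD40 tumors, and in bulk tumor pieces fewer cells of a type and less RNA per cell cannot be told apart. Of 17 genes used by most leukocytes, 16 reached an unadjusted p under 0.05 and 15 had no overlap, with a median of 2.60, but 4 were called. The mean of this list was 8.30, 9.15, 10.40 and 8.48 in the CD40 tumors and 6.79, 5.78, 7.32 and 6.52 in the MEKi tumors, so the groups were separate. Rac2, a GTPase of blood cells, was higher by 2.60 ± 0.39 (adjusted p = 0.0232) and Itgb2, a leukocyte integrin chain, by 2.94 ± 0.50 (adjusted p = 0.0376). Called members ranged from 0, without CD40 tumor 2, MEKi tumor 1, MEKi tumor 2 or MEKi tumor 4 and with the robust prior, to 15 without the 2 tumors of high fibroblast signal. How much of the difference in interferon and presentation genes goes with leukocyte content was not tested.

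Macrophage genes were among them. Of 18 measured markers 14 were higher at an unadjusted p under 0.05, 11 had no overlap and 5 were called, with a median of 2.79. The differences ran from -0.68 to 4.15, with 17 positive and 1 negative. Aif1, an actin-binding protein of macrophages, read 8.05, 9.46, 10.75 and 7.75 in the CD40 tumors and 5.55, 4.03, 5.25 and 4.59 in the MEKi tumors, a difference of 4.15 ± 0.63 (adjusted p = 0.0249). Chil3, a chitinase-like protein of alternatively activated macrophages, read 6.09, 7.58, 8.14 and 6.79 against 3.89, 3.70, 4.76 and 4.14, a difference of 3.03 ± 0.42 (adjusted p = 0.0181). All 4 MEKi values of Chil3 were below the background level. Cd68, a lysosomal protein, was higher by 2.74 ± 0.49 (adjusted p = 0.0417) and Ms4a7 by 3.27 ± 0.59 (adjusted p = 0.044). The list of Fc gamma receptors, which also holds their signalling chain Fcer1g, is carried by macrophages and by other leukocytes. All 5 members had no overlap, with a median of 3.07. Fcgr4 was higher by 3.56 ± 0.46 (adjusted p = 0.0146) and Fcgr1 by 3.59 ± 0.56 (adjusted p = 0.0273).

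Mrc1 and Nos2, often used to sort macrophages into states, were not called, unlike Chil3. Mrc1, the mannose receptor, read 7.35, 7.08, 9.74 and 7.60 in the CD40 tumors and 6.57, 5.19, 9.09 and 5.99 in the MEKi tumors, with tumor 3 highest in both groups and a difference of 1.23 ± 0.85 (adjusted p = 0.558). Nos2, the inducible nitric oxide synthase, differed by 0.03 ± 0.13 (adjusted p = 0.947), with values of 5.24 to 5.77 and 5.37 to 5.73. Of 5 members in the macrophage list called with all tumors, 0 were called without CD40 tumor 2, MEKi tumor 1, MEKi tumor 2 or MEKi tumor 4, or with the robust prior.

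**Figure D3:**
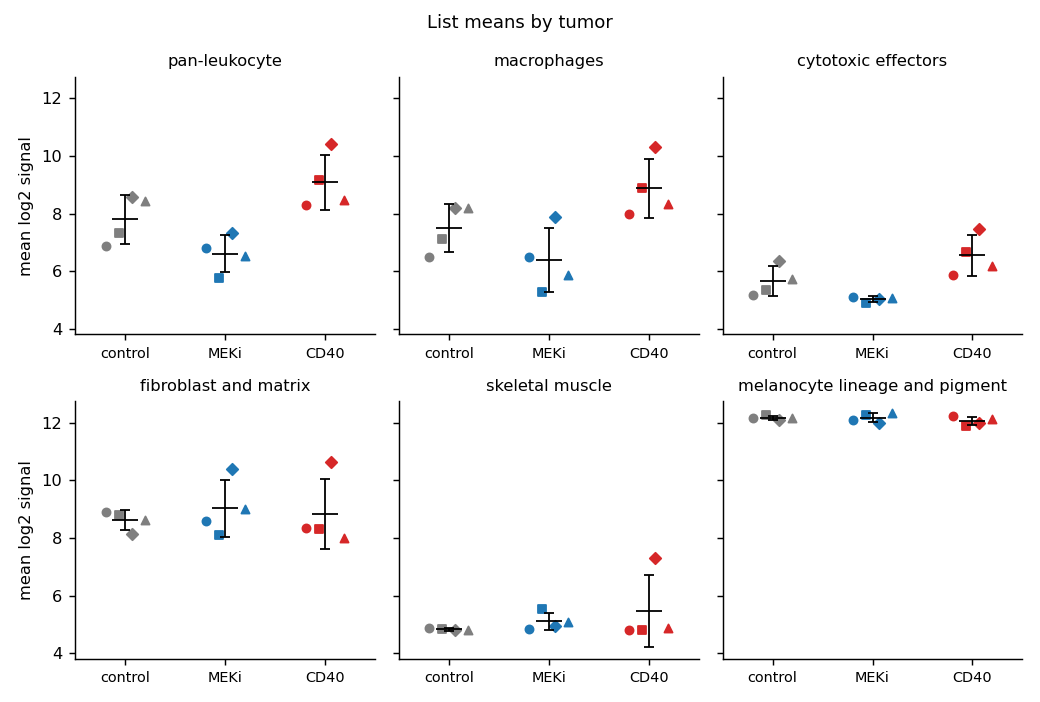
Mean log2 signal of the measured members of 6 gene lists in each tumor, with control tumors in grey, MEKi tumors in blue, CD40 tumors in red, the mean ± SD of 4 tumors as bars, and tumors 1 to 4 as circle, square, diamond and triangle. The leukocyte, macrophage and cytotoxic means of the CD40 tumors lie above those of the MEKi tumors, fibroblast signal is high in tumor 3 of both groups at 10.65 and 10.41, and the muscle mean is 7.32 in CD40 tumor 3.

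The receptor that the antibody binds and its signalling genes differed less. Cd40 read 6.23, 7.43, 8.86 and 6.18 in the CD40 tumors and 5.78, 5.54, 5.39 and 5.64 in the MEKi tumors. The groups did not overlap, but CD40 tumor 3 stood high, and the difference of 1.59 ± 0.52 was not called (adjusted p = 0.224). Without that tumor it was 1.03 (adjusted p = 0.183). Of the 15 measured genes of CD40 and NF-kB signalling none was called, 5 reached an unadjusted p under 0.05 on the higher side and the median was 0.53, or 0.22 without CD40 tumor 3, 0.35 with array weights or with a gene's probe sets averaged, and 0.18 without both tumors of high fibroblast signal. Birc3, an inhibitor of apoptosis that NF-kB raises, differed by 1.10 ± 0.47 (adjusted p = 0.351). Among 15 dendritic cell genes, 6 of them below background in both groups, the median was 0.07, and it was -0.01 with array weights and -0.03 without CD40 tumor 3. Differences were positive in 9 and negative in 6. At an unadjusted p under 0.05, 4 were higher and 2 lower, against 6.87% and 9.01% of all genes. No overlap was seen in 3 higher and 2 lower ones, against 4.89% and 5.94%. Itgax, the integrin CD11c that macrophages also carry, was called at 1.97 ± 0.36 (adjusted p = 0.0467). Batf3, a factor of cross-presenting dendritic cells, differed by 0.51 ± 0.15 (adjusted p = 0.182). Cd83 differed by 1.69 (adjusted p = 0.236) and Flt3 by -0.23 (adjusted p = 0.288).

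Genes of cytotoxic lymphocytes were higher, and several of them were at or near background in the MEKi tumors. Of 15 measured members 11 had no overlap and 4 were called, with a median of 1.42, or 0.92 without CD40 tumor 3. Gzmb, the granule protease of killer cells, read 7.29, 9.49, 10.06 and 8.40 in the CD40 tumors and 5.17, 4.91, 5.47 and 5.14 in the MEKi tumors, a 12.4-fold difference of 3.64 ± 0.51 (adjusted p = 0.02). Ccl5, a chemokine of activated T cells, read 9.77, 10.94, 12.31 and 10.19 against 7.37, 6.56, 6.92 and 7.43, a difference of 3.73 ± 0.49 (adjusted p = 0.0154). The MEKi tumors spread over less than 1 log2 unit for both genes, and their mean over the whole list lay between 4.91 and 5.11, against 5.88 to 7.48 in the CD40 tumors. Nkg7, a granule membrane protein, was higher by 3.32 ± 0.51 (adjusted p = 0.0249). None of the 4 calls was left without CD40 tumor 2, without MEKi tumor 2 or with the robust prior, and 6 members were called without the 2 tumors of high fibroblast signal.

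The T cell list itself was mixed. Of its 14 measured members 8 were higher at an unadjusted p under 0.05, against 6.87% of all genes. No overlap was seen in 7, against 4.89%, and 1 was called, with a median of 0.48. Cd3g, part of the CD3 signalling unit of T cells, read 6.17, 7.41, 8.61 and 6.69 in the CD40 tumors and 4.56, 3.76, 4.22 and 4.62 in the MEKi tumors, a difference of 2.93 ± 0.46 (adjusted p = 0.0282). All 4 MEKi values of Cd3g were below background. Cd8b1 differed by 1.97 ± 0.44 (adjusted p = 0.0909), while Cd8a, the other chain of the same co-receptor, differed by 0.10 ± 0.09 (adjusted p = 0.661). The Cd8a probe set read 5.97 to 6.23 and 5.92 to 6.09, so it did not follow Cd8b1. Cd4 differed by -0.10 ± 0.08 (adjusted p = 0.616). Cd8a and Cd4 were each read at their brightest probe set, so these values do not speak for T cell numbers. Foxp3, the factor of regulatory T cells, lay near background in both groups at 4.67 to 4.97 and 4.72 to 4.89.

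Among immune checkpoints 1 of 9 was called. Cd274, which encodes PD-L1 and is itself raised by interferon gamma, read 9.63, 10.57, 10.97 and 9.42 in the CD40 tumors and 7.57, 6.47, 6.88 and 7.77 in the MEKi tumors, a difference of 2.98 ± 0.40 (adjusted p = 0.0159). Lgals9 was higher by 1.27 ± 0.24 (adjusted p = 0.0524) and Pdcd1, which encodes PD-1, by 0.89 ± 0.27 (adjusted p = 0.183). Of 9 B cell genes, whose cells carry CD40, 6 lay below background in both groups, and the lack of a call and the median of 0.07 rest mostly on genes without signal. Cd79b, a chain of the B cell receptor, differed by 0.54 ± 0.14 (adjusted p = 0.133) at 4.68 to 5.37 against 4.34 to 4.58, and Ighm by -0.09 ± 0.07, with 3 of its 10 other probe sets opposed at an unadjusted p under 0.05. All 4 NK cell genes measured lay below background in both groups, so that the lack of a call among them says nothing of these cells. Of 11 neutrophil genes 5 lay below background in both groups and none was called. Their median was 0.01, or 0.8 with the filter on low signal. Differences were positive in 6 and negative in 5, with 2 higher at an unadjusted p under 0.05, against 6.87% of all genes. Mmp8 and S100a8, the members of smallest p, differed by 0.94 (adjusted p = 0.27) and 1.99 (adjusted p = 0.273).

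Chemokines, caspases and complement also leaned to the CD40 side. None of the 13 measured members of the CC chemokine and receptor list was called, and the median was 1.89. No overlap was seen in 6 of them, against 4.89% of all genes. Ccl5, a CC chemokine that was counted among the cytotoxic genes above, was called. Ccl3 was higher by 2.76 ± 0.53 (adjusted p = 0.0541) and Cxcr6, a CXC receptor kept in this list, by 2.08 ± 0.40 (adjusted p = 0.056). Of 15 inflammatory caspases and death receptor genes 5 were called, with a median of 1.09. Casp1, which cleaves interleukin 1 beta and interleukin 18, read 8.15, 8.48, 9.30 and 7.99 in the CD40 tumors and 5.55, 4.98, 5.45 and 5.83 in the MEKi tumors, a difference of 3.03 ± 0.28 (adjusted p = 0.00706). Casp4, the caspase that senses lipopolysaccharide, was higher by 2.83 ± 0.30 (adjusted p = 0.00845), Casp12 by 3.25 ± 0.41 (adjusted p = 0.0125) and Mlkl, the effector of necroptosis, by 1.09 ± 0.16 (adjusted p = 0.0206). Casp1 and Casp4 kept their calls under every alternative. Among 6 complement genes 1 was called, C1ra at 1.99 ± 0.37 (adjusted p = 0.0482).

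**Figure D4:**
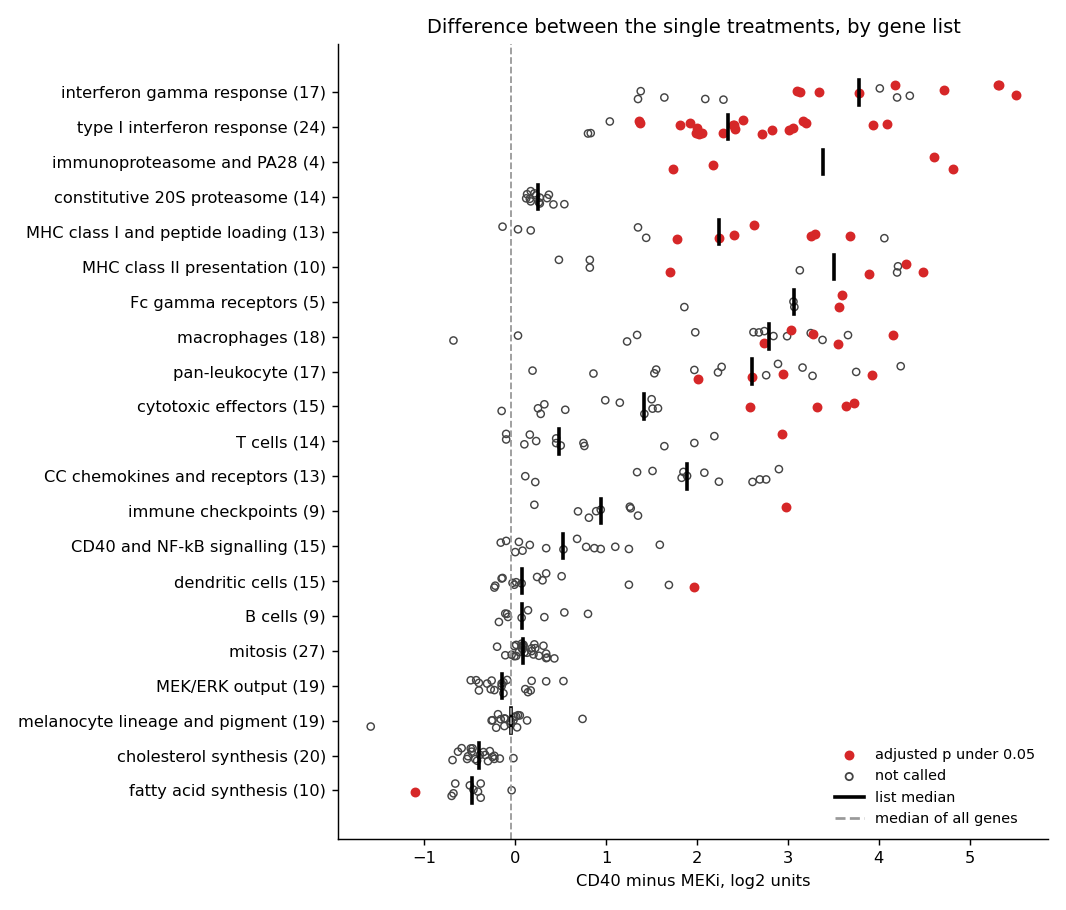
Difference CD40 minus MEKi in log2 units for every measured member of 21 gene lists, the number measured in brackets. Filled red points have an adjusted p under 0.05, open points do not, the black bar is the list median and the dashed line is the median of all genes at -0.045. Interferon lists lie to the right with medians of 3.78 and 2.34, while cholesterol and fatty acid synthesis lie to the left at -0.40 and -0.48.

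The genes lower in the CD40 tumors were few and their differences small, and fatty acid synthesis had the lowest median of the 41 lists in this fit. Scd1, the desaturase that makes monounsaturated fatty acids, read 10.42, 10.47, 10.07 and 10.49 in the CD40 tumors and 11.69, 11.50, 11.48 and 11.16 in the MEKi tumors. The lowest MEKi tumor was above the highest CD40 tumor, and the signal was 2.14-fold higher in the MEKi tumors, a difference of -1.10 ± 0.13 (adjusted p = 0.0118). Of the 10 measured genes of fatty acid synthesis 9 were lower at an unadjusted p under 0.05, against 9.01% of all genes, and 8 had no overlap, against 5.94%, with a median of -0.48. Scd1 was the 1 called. Scd2 differed by -0.46 ± 0.09 (adjusted p = 0.068), and the desaturases Fads1 and Fads2 by -0.66 ± 0.14 (adjusted p = 0.0791) and -0.68 ± 0.15 (adjusted p = 0.0924). Fads6, a related desaturase outside the list, was called at -0.73 ± 0.10 (adjusted p = 0.0198), with 6.40 to 6.53 in the CD40 tumors and 6.96 to 7.41 in the MEKi tumors. Of the other lower genes, 3 that act on lipids or their precursors were chosen after their values were seen, with Lpcat3 at -0.54, Acss2 at -0.51 and the citrate carrier Slc25a1 at -0.48.

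Cholesterol synthesis leaned the same way without a call, although 1 member, Insig1, was called with the replicate block (adjusted p = 0.0359) and 3 members without both tumors of high fibroblast signal. Of 20 measured members 12 were lower at an unadjusted p under 0.05, against 9.01% of all genes, and 4 had no overlap, against 5.94%. The median was -0.40 and stayed between -0.50 and -0.29 under the alternatives. Set against the control tumors, the list median was -0.65 in the CD40 tumors and -0.14 in the MEKi tumors. For 1 of the 20 members the control mean lay between those of the 2 groups. Insig1, which retains the sterol-sensing complex in the endoplasmic reticulum, read 10.87, 10.81, 10.28 and 10.72 in the CD40 tumors and 11.60, 11.42, 10.97 and 11.45 in the MEKi tumors, a difference of -0.69 ± 0.17 (adjusted p = 0.112). Srebf2, the factor that drives the pathway, differed by -0.53 ± 0.14 (adjusted p = 0.152), and Hmgcs1, the synthase of HMG-CoA, by -0.52 ± 0.14 (adjusted p = 0.154). For both Insig1 and Hmgcs1 tumor 3, the one with high fibroblast signal, was the lowest of its group in the CD40 and in the MEKi tumors. A sterol element, TCACNCCAC, was found in the window of 1 of 16 matched cholesterol genes, against 1.44% of all genes, and in 0 of 7 matched genes of fatty acid synthesis. The 1 window is that of Hmgcs1, shown 5′ to 3′ with the match in capitals, 137 bases before the start.
Hmgcs1 (chr13:119690101-119690400, plus strand): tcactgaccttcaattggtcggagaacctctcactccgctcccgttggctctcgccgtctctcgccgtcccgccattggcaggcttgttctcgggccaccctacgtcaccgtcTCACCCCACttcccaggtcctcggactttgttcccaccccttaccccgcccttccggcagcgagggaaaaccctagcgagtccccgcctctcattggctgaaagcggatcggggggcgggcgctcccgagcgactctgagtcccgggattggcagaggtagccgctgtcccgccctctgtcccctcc

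**Figure D5:**
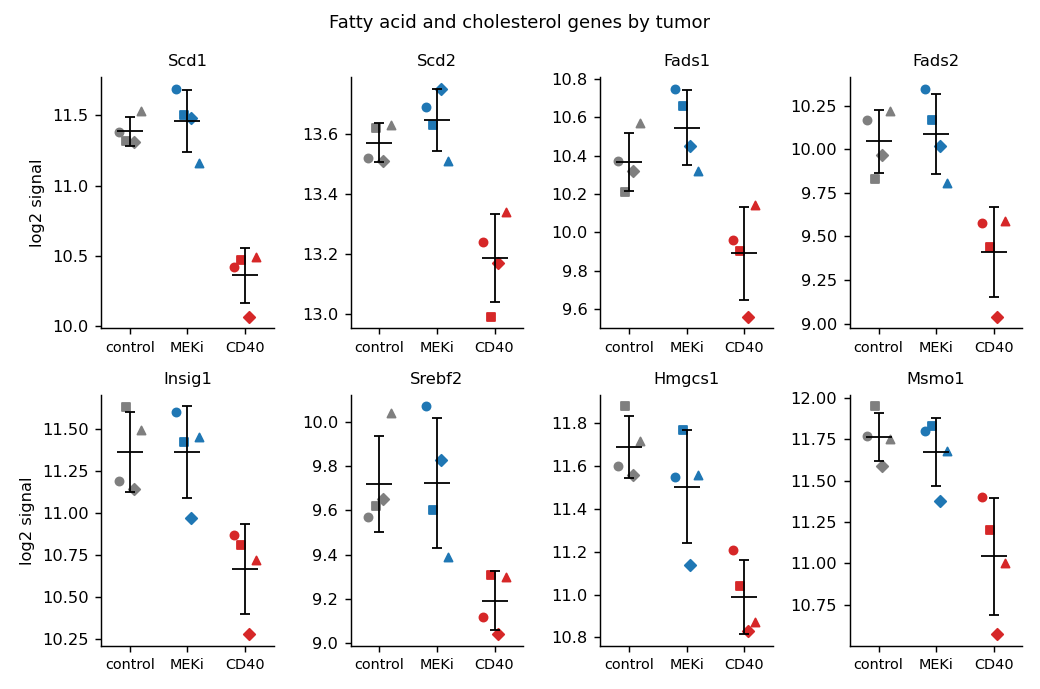
Log2 signal of 8 genes of fatty acid and cholesterol synthesis in each tumor, each panel on its own axis that does not start at 0, with control tumors in grey, MEKi tumors in blue, CD40 tumors in red, the mean ± SD of 4 tumors as bars, and tumors 1 to 4 as circle, square, diamond and triangle. Scd1 lies at 10.07 to 10.49 in the CD40 tumors and at 11.16 to 11.69 in the MEKi tumors, and the control tumors sit near the latter at 11.31 to 11.53.

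Outside lipids the lower genes shared no list, since Scd1 was the only 1 of the 33 that belonged to any. Dcdc2a, a doublecortin-domain gene, had the widest gap among the 33. It read 6.68, 6.37, 6.26 and 5.92 in the CD40 tumors and 7.11, 8.00, 7.56 and 8.03 in the MEKi tumors. The difference was -1.37 ± 0.23 (adjusted p = 0.0332). Erbb3, a receptor of the epidermal growth factor receptor family that binds neuregulin, read 8.63, 8.71, 8.57 and 8.56 against 9.66, 9.51, 9.53 and 9.03, a difference of -0.82 ± 0.13 (adjusted p = 0.0289). The CD40 tumors were nearly level for Erbb3, and MEKi tumor 4 was the closest to them. Nlgn1, a synaptic adhesion protein, differed by -0.84 ± 0.13 (adjusted p = 0.0255), Rnd2 by -0.83 ± 0.12 (adjusted p = 0.0205), and Adam23, an adhesion protein without protease activity, by -0.82 ± 0.15 (adjusted p = 0.0479). Prxl2a, Tspan17 and Icam4 completed the 10 largest with -0.74, -0.71 and -0.69.

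Target genes of the pathway that GDC-0623 inhibits did not separate the groups. Of 19 measured ERK target genes none was called and the median difference was -0.15. Only 1 had no overlap, on the lower side, where 5.94% of all genes had none. Against the control tumors the list median was 0.16 for MEKi and -0.05 for CD40, so the list was not lower than control in the MEKi tumors. Dusp6, the phosphatase that ERK signalling raises, read 12.30, 12.27, 12.19 and 12.30 in the CD40 tumors and 12.33, 12.25, 11.65 and 12.16 in the MEKi tumors, a difference of 0.17 ± 0.14 (adjusted p = 0.638). Spry4, a feedback inhibitor of the pathway, read 6.79 to 6.88 against 6.55 to 7.62, and its difference of -0.31 ± 0.19 (adjusted p = 0.522) put the higher mean in the MEKi tumors. Etv4, an ETS factor, differed by -0.49 ± 0.25 (adjusted p = 0.419) and Ccnd1, cyclin D1, by 0.18 ± 0.10 (adjusted p = 0.466). Spred2, an inhibitor of the cascade and the gene without overlap, differed by -0.26 ± 0.08 (adjusted p = 0.199).

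Genes of tumor growth and lineage gave no call either. The median of 27 mitosis genes was 0.09, that of 24 DNA replication genes 0.05 and that of 22 ribosome biogenesis genes 0.04, with 0 calls among them in limma, 3 mitosis genes at an unadjusted p under 0.05 and 0 of the other 2 lists. The signs of these medians are not settled, since they were -0.06 for mitosis without MEKi tumor 4, -0.02 for DNA replication without MEKi tumor 3 or 4 and -0.01 for ribosome biogenesis without MEKi tumor 3. Mki67, a protein of cycling cells, read 11.86, 11.71, 11.48 and 11.95 against 12.07, 11.79, 11.98 and 11.11, a difference of 0.01 ± 0.20 (adjusted p = 0.986). The CD40 values fell within the range of the MEKi values, and MEKi tumor 4 was the lowest of the 8. Of the 19 measured melanocyte genes none was called, with a median of -0.05 and differences from -1.59 to 0.74. At an unadjusted p under 0.05, 3 were lower, against 9.01% of all genes, and 1 was higher, against 6.87%. No overlap was seen in 1, on the lower side, against 5.94% of all genes. Ednrb and Kit, the members of smallest p, differed by -1.59 and 0.74, both with an adjusted p of 0.193. Tyrp1, a melanosome enzyme, differed by -0.12 ± 0.08 (adjusted p = 0.536) and Mitf, the factor of the lineage, by -0.25 ± 0.16 (adjusted p = 0.535). In arrays simulated with the same spread, 83% of the probe sets that were shifted by 1 log2 unit were called, and smaller shifts were not simulated. Those probe sets were drawn at random from all and given independent noise, so the share does not carry over to these lists. In the tumors themselves 542 genes had a difference above 1, and 172 of them were called higher.

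Each group was also set against the control tumors, in 2 comparisons that share the same 4 control tumors. Neither gave a call among 45037 probe sets in limma, with 3857 (8.56%) at an unadjusted p under 0.05 for CD40 against control and 3110 (6.91%) for MEKi against control, and smallest adjusted p of 0.0723 and 0.0538. The median over the 197 higher genes was 0.99 for CD40 minus control and -1.21 for MEKi minus control. Over the 33 lower genes it was -0.32 and 0.23. The MEKi side was the wider one in 129 of the 197, and the CD40 side in 19 of the 33. As these genes were picked by the CD40 minus MEKi difference, their place on either side of control follows in part from that choice. Psmb8 differed from control by 1.10 ± 0.36 in the CD40 tumors and by -3.72 ± 0.68 in the MEKi tumors, and Gbp6 by 1.62 ± 0.59 and -3.89 ± 0.97. For Oas2 the CD40 side was the wider one, with 1.43 ± 0.16 and -0.57 ± 0.14. Ubd differed by 3.54 ± 0.73 and -1.78 ± 0.60. In 3 of the MEKi tumors Ubd lay below background, which limits how low it could read, so its sides cannot be ranked. Scd1 differed by -1.02 ± 0.11 and 0.07 ± 0.11, and Erbb3 by -0.71 ± 0.12 and 0.11 ± 0.16. Fads6 and Dcdc2a lay further from control in the MEKi tumors, with 0.59 ± 0.10 and 0.77 ± 0.22 against -0.14 ± 0.07 and -0.60 ± 0.19 in the CD40 tumors. None of these single values passed its own adjusted threshold, and the control tumors themselves ranged from 10.32 to 11.98 for Psmb8 and from 5.11 to 8.45 for Ubd.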

How the data were processed

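RNA of B16-OVA tumor pieces (200 ng, integrity number above 8) was hybridised to Affymetrix whole-genome mouse arrays, 1 per tumor. The authors normalised the arrays with RMA in Chipster, and the deposited values are log2 signals per probe set; RMA removes background and equalises the distributions of the arrays, so a shift of all genes together would not be seen. The software versions are not given in the sources used here.

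From these values, the 4 CD40 and 4 MEKi tumors were compared with limma 3.58.1 (R 4.3.3, lmFit and eBayes) over 45037 probe sets, after 64 control probe sets were left out, with Benjamini-Hochberg adjustment over all of them and an adjusted p under 0.05 as a call. This follows the 2-group test of the study. GEO's platform annotation gave 34945 probe sets 1 gene symbol, 932 several and 9160 none. Each of 18193 genes was taken at its brightest probe set over the 16 arrays. Background (4.94) was taken from 44 olfactory receptor probe sets, as percentile 95 of their means over the arrays, and 39.7% of probe sets lay below it. Folds are ratios of unlogged means of log2 values, given as lower bounds where the MEKi mean lay below background. Arrays give no read depth, and their number limits the precision. Nothing in the labels used here ties tumors to separate cages or days, so such effects could not be assessed. The p-values set the difference between groups against the spread among tumors within them.

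The contrast, the 41 gene lists (554 of 610 genes measured) and the named genes were chosen with earlier results of these data known. Lists are described by counts and medians, without a test. Named genes were up to 10 with the largest difference per direction among calls without overlap, up to 4 per list by smallest p, and a set of fixed names. Ifit2, Mx2, Oas3, Canx, Pdia3, Calr, Lpcat3, Acss2 and Slc25a1 were named after their values were seen. Arrays were simulated with independent noise and 200 changed probe sets drawn at random. There 83% of changes of 1 and 96% of changes of 2 log2 units were called, with 8 false among 187 calls. Alternatives were a fit over all 16 arrays, a replicate block, a filter on low signal, 1 or the mean of a gene's probe sets, cyclic loess, median centring, a trended robust prior, array weights, each tumor left out, and 2 tumors left out. Promoter windows came from RefSeq (GRCm38.p6), and figures were drawn with matplotlib 3.10.9.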

Additional observations from a re-analysis of the deposited data

Results flagged for a closer look

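Each group of 4 tumors was searched for a single tumor far from the other 3, over the means of the 41 lists and the genes with values in the text. Of 282 values tested, 16 had such a tumor by Dixon's criterion, where chance gives about 1 in 20, and 7 of the 16 were in CD40 tumor 3. None of them was weighed further.

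CD40 tumor 3 was high in tissue lists, with means of 7.32 for skeletal muscle against 4.80 to 4.88 in the other 3, 10.65 for fibroblast and matrix genes against 8.01 to 8.34, and 8.00 for endothelium against 6.86 to 7.05. Its ribosome biogenesis mean was low, at 10.29 against 10.53 to 10.57. In the same tumor Itgax was 8.83 against 7.06 to 7.33, Tyk2 was 8.86 against 8.58 to 8.59, and Scd1 was 10.07 against 10.42 to 10.49.

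Among the MEKi tumors, tumor 3 was low in the constitutive 20S proteasome mean, at 11.40 against 11.56 to 11.59, and high in the glucocorticoid response mean, at 10.26 against 9.76 to 9.84. Its Ighm signal was 7.25 against 7.12 to 7.14. MEKi tumor 1 stood high in Etv4, at 7.11 against 5.99 to 6.09, in Ccnd1, at 11.12 against 10.94 to 10.96, and in Ubd, at 5.06 against 4.48 to 4.53. MEKi tumor 2 was low in Casp4, at 5.44 against 6.35 to 6.52, and in H2-DMb2, at 5.66 against 6.03 to 6.07. The clock output mean of MEKi tumor 4 was 7.45 against 7.32 to 7.34.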

How the results depend on the processing

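The direction of the 58 called genes among those chosen for naming held under every alternative, while 14 to 58 of them stayed called, the fewest without CD40 tumor 2. Calls higher in the CD40 tumors numbered 347, with 226 at 1 probe set per gene, 194 with the robust prior, 631 without both tumors of high fibroblast signal (chosen after seeing the data), and 95 to 399 with 1 tumor left out. Calls lower numbered 55, with 90 over all 16 arrays, 34 with cyclic loess, 31 with the robust prior, 87 with array weights, 117 without the 2 tumors, and 5 to 49 with 1 tumor left out. With the replicate number as a block there were 271 and 26, and 37 of the 58 genes stayed called; same-numbered tumors correlated at 0.02, 0, 0.47 and -0.04, and number 3 alone matched itself best, so the numbers were not taken as pairs. The MHC class I median was 1.69 with a gene's probe sets averaged, and the cytotoxic median ranged from 0.92, without CD40 tumor 3, to 1.73 with 1 tumor left out and was 0.85 without the 2 tumors. The dendritic cell median changed sign, to -0.01 with array weights, and ranged from -0.03, without CD40 tumor 3, to 0.25 with 1 tumor left out. Other medians close to 0 also changed sign in some alternative, with B cell genes at -0.09 without CD40 tumor 4, mitosis at -0.06 without MEKi tumor 4, endothelium down to -0.44 and skeletal muscle down to -0.24 without the 2 tumors, and fibroblast genes up to 0.18 without MEKi tumor 3. The causes were not tested. Genes near background, such as Ubd in the MEKi tumors, were measured at the lower end of what the arrays resolve.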

Other observations

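Several lists outside the comparisons above gave 0 calls in limma, and their counts at an unadjusted p under 0.05 stand here as values. Over all genes 6.87% were higher and 9.01% lower at that level. Regulatory T cell genes had a median difference of 0.21 over 8 measured with 2 higher, and plasma cell and immunoglobulin genes one of 0.09 over 8 with 2 higher. Hypoxia and glycolysis genes had a median of -0.11 over 18, with 1 higher and 3 lower. Clock output genes had a median of -0.19 over 14, with 2 lower, and heat shock and unfolded protein genes one of 0.02 over 13, with 3 lower. The amino acid stress response had a median of -0.05 over 14 with 1 higher, adipocyte genes 0.33 over 8 with 3 higher, and the glucocorticoid response -0.09 over 9, keratinocyte genes -0.09 over 9 and red blood cell genes -0.26 over 3 with none in either direction. Skeletal muscle, fibroblast and endothelial genes, the lists in which CD40 tumor 3 stood apart, had medians of 0.36, -0.22 and 0.21 with none in either direction, and the signs rest on single tumors. Without CD40 tumor 3 the muscle median was -0.18 and the endothelial one -0.16, without MEKi tumor 3 the endothelial one was -0.15 and the fibroblast one 0.18, and without CD40 tumor 4 the fibroblast one was 0.07.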
